A study of Mus musculus with 17 samples.

Results

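The DNA damage response and repair genes described here are 41 genes that sense DNA breaks or remove damaged bases, taken from a fixed list by gene symbol, and 38 of them have a probe among the 28786 genes of the array. The brightest probe stood for each gene. Atr, Palb2 and Claspn were not analysed because no probe was named for them. RNA came from epithelial cells cut by laser microdissection from 17 mammary tumors of FVB mice, 9 carrying the p75-CUX1 and 8 the p110-CUX1 transgene, and was amplified in 2 rounds. Both transgenes encode short isoforms of the CUX1 transcription factor under regulatory sequences of the mouse mammary tumor virus, which act mostly in mammary epithelium, and no tumor without a transgene was in the series. Tumors are named by transgene and mouse number. Every tumor RNA was compared, in both dye orientations, with the same amplified universal mouse reference RNA, and all values below are log2 ratios of tumor over reference unless stated otherwise. The tumors were compared by the study's clusters on Wnt genes (5 high-Wnt, 5 medium-Wnt and 7 low-Wnt, each with tumors of both transgenes), by transgene, and by histological type (4 Adenosquamous Carcinoma, all p75-CUX1, and 9 Solid Carcinoma; the other 4 tumors are 2 Adenomyoepithelioma, 1 Adenocarcinoma and 1 Adenoma). The Wnt clusters were drawn on these same arrays, with no repair gene used.

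Cells mend DNA by several routes. Double-strand breaks are sensed by the MRE11-RAD50-NBN complex and the kinase ATM, and are rejoined by homologous recombination, which copies the sister chromatid with the help of BRCA1 and BRCA2, or by non-homologous end joining. Damaged single bases are cut out by base excision repair, bulky lesions by nucleotide excision repair, mispaired bases by mismatch repair, and crosslinks by the Fanconi anemia pathway. Many of these genes are transcribed more in dividing cells. BRCA1, BRCA2 and p53 are known as tumor suppressors of the mammary gland, and the full-length CUX1 protein is known to assist base excision repair.

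Some libraries stood apart. In p110-98, p110-225 and p110-374 the tumor color was weak, with a 95th percentile of reference signal 8.9 to 12.8 times that of the tumor, against 0.647 to 4.09 times in the other 14 tumors, and 18.3% to 22.2% of probes were well above background in the tumor color, against 27.3% to 61.9%. In p110-121 the 9 epithelial markers had a mean log2 ratio of -0.87 with 3 of 9 measured, against 1.73 to 3.55 in every other tumor, and the 11 immune markers had 2.99, against at most 0.99 elsewhere, which goes against the label of epithelial tumor cells. All p75-CUX1 arrays were scanned in 2009 and all p110-CUX1 arrays in 2008, so transgene and scan year cannot be told apart. Cux1 itself was measured in all 17 tumors, between -2.12 and -0.33, and differed by 0.04 ± 0.27 (SE) between p110 and p75 tumors (adjusted p = 0.97 by limma). Between high-Wnt and low-Wnt tumors Cux1 differed by 0.80 ± 0.25 (SE, adjusted p = 0.211 by limma). Between high-Wnt and medium-Wnt tumors it differed by 0.74 ± 0.27 (SE), in a comparison where no gene of the array passed the adjusted threshold. Whether its probe detects the transgene was not checked.

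A gene is called measured in a tumor when its probe was well above background in the tumor color on every array of that tumor. Of the 38 genes, 26 were measured in more than 8 tumors, 6 in all 17 (Trp53, Brca2, Nbn, Ung, Xrcc1 and Msh6), and 2 (Bard1 and Fancd2) in none. The number measured ran from 8 genes in p110-98 to 35 in p110-314 and p110-416. Most genes lay below the reference: the median over tumors was under 0 for 32 of 38, and 8 were under 0 in all tumors. The share of all genes under 0 was not counted, but their median lay between -0.005 (p110-314) and 0.024 (p75-216) in every tumor. List means of the 17 proliferation genes were also under 0 in every tumor (-3.06 to -0.04). The sign of a ratio depends as well on what the reference RNA holds. Since a bulk ratio sums over all cells, fewer cells that express a gene and less RNA per cell cannot be told apart. A value of an unmeasured gene rests on a tumor signal near background.

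**Figure D1:**
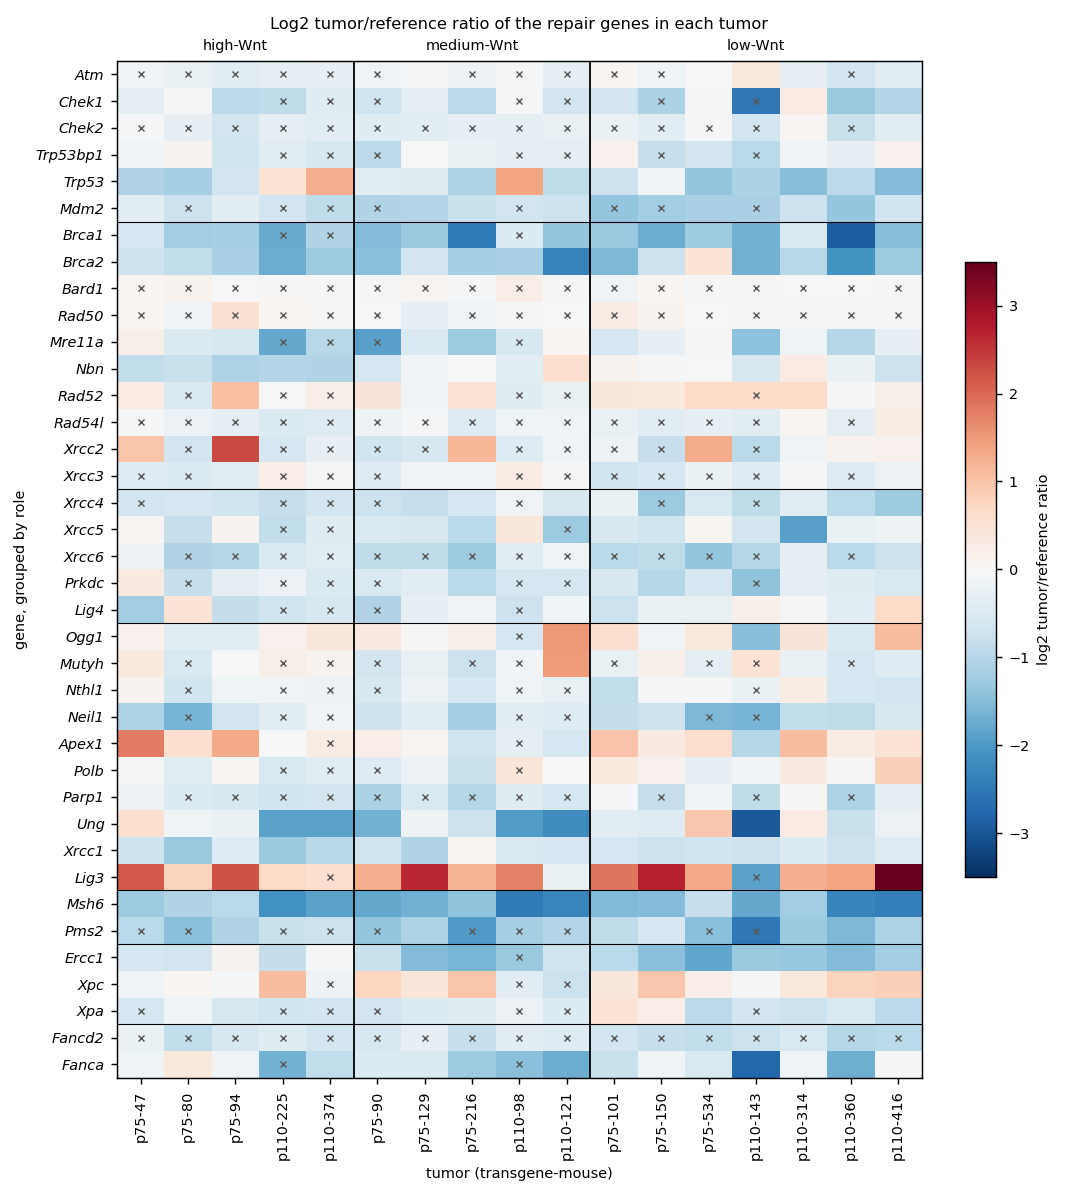
Log2 tumor/reference ratio of the 38 repair genes (rows, separated by role) in the 17 tumors (columns, separated by Wnt cluster), with red above and blue below the reference; a cross marks a gene not measured in that tumor. Lig3 is above the reference in most columns, Msh6 is below it in all, and crosses are most frequent in p110-98, p110-225 and p110-374.

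Among the damage sensors and checkpoint genes, the kinase gene Atm ran from -0.66 to 0.33 over the tumors and was measured in 5. Chek1, the kinase that halts replication, ran from -2.49 in p110-143 to 0.3 in p110-314 (10 tumors measured), and Chek2 from -0.78 to 0.07 (2 measured). Trp53bp1, a scaffold at broken ends, ran from -0.95 to 0.16 (10 measured). Trp53, which encodes p53, had the widest spread of the group, from -1.52 to 1.39, and Mdm2, whose product marks p53 for destruction, ran from -1.38 to -0.36 (9 measured).

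Among the homologous recombination genes, Brca1 ran from -2.89 in p110-360 to -0.47 (14 tumors measured) and Brca2 from -2.34 in p110-121 to 0.49 in p75-534. The 3 genes of the break-sensing complex differed in how well they were seen: Mre11a ran from -1.89 to 0.2 (13 measured), Nbn from -1.08 to 0.55 (17 measured) and Rad50 from -0.29 to 0.54 (1 measured). Rad52, which anneals single strands, was the member of this group with the highest median, 0.3, and ran from -0.5 to 1.06 (11 measured). Xrcc2 and Xrcc3 ran from -0.93 to 2.3 (7 measured) and from -0.71 to 0.27 (5 measured). The translocase gene Rad54l ran from -0.47 to 0.26 (2 measured), and Bard1, the partner of Brca1, from -0.11 to 0.24. In non-homologous end joining, the Ku subunit genes Xrcc5 and Xrcc6 ran from -1.9 to 0.4 (14 measured) and from -1.35 to -0.16 (3 measured). Prkdc, which encodes the kinase that Ku recruits, ran from -1.41 to 0.32 (10 measured). The ligase gene Lig4 ran from -1.22 to 0.65 (13 measured) and that of its cofactor, Xrcc4, from -1.27 to -0.13 (10 measured).

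Base excision repair held the 2 genes with the widest ranges, Lig3 and Ung. Lig3, the ligase that seals the nick, spanned 5.35, from -1.87 in p110-143, where it was not measured, to 3.48 in p110-416, and its median of 1.34 was the highest of all 38 genes. Its other, dimmer probe gave a difference of opposite sign between the transgenes (0.53 against -0.92 for p110 minus p75), so Lig3 is not followed further. Ung, which removes uracil from DNA, spanned 3.87, from -2.94 in p110-143 to 0.93 in p75-534. The 8-oxoguanine glycosylase gene Ogg1 ran from -1.49 to 1.51 (16 measured), and Mutyh, which removes adenine paired with 8-oxoguanine, from -0.75 to 1.49 (7 measured), and both were highest in p110-121. The glycosylase genes Nthl1 and Neil1 ran from -0.85 to 0.26 and from -1.64 to -0.11 (10 tumors measured for each). Apex1, the endonuclease that cuts at abasic sites, ran from -1.01 to 1.79 (15 measured) and Polb, the gap-filling polymerase, from -0.77 to 0.83 (13 measured). The break sensor gene Parp1 ran from -1.11 to 0.05 (5 measured), and its scaffold partner Xrcc1 from -1.31 to 0.1 (17 measured).

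Msh6, the mismatch recognition subunit, was the gene with the lowest median of all, -1.68, and ran from -2.48 to -0.8, whereas Pms2, which acts after it, ran from -2.51 to -0.59 (7 measured). In nucleotide excision repair, the damage detector gene Xpc ran from -0.74 to 1.07 (14 measured), Xpa, which verifies the lesion, from -0.92 to 0.48 (10 measured), and Ercc1, which encodes a subunit of the endonuclease that makes the 5′ cut, from -1.81 to 0.12 (16 measured). Of the Fanconi anemia genes, Fanca, a subunit of the core complex, ran from -2.75 to 0.38 (15 measured), and Fancd2, the target of that complex, from -0.99 to -0.24.

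None of the 38 genes passed an adjusted p under 0.05 (limma over 28786 genes) between high-Wnt and low-Wnt tumors, where 0.184% of all genes passed, between p110 and p75 tumors, where 0.459% passed, or between adenosquamous and solid carcinomas, where no gene did (27 genes without p75-101). At an unadjusted p under 0.05, 4 of 38 genes differed between high-Wnt and low-Wnt tumors (3 higher and 1 lower; 11.9% of all genes), 6 between p110 and p75 tumors (2 higher and 4 lower; 14% of all genes), and 3 between the histological types (all higher in adenosquamous carcinomas; 5.52% of all genes). These counts are near the share over all genes, but they depended on the processing: by transgene there were 23 with median centering (34.7% of all genes at that setting), 3 without the weak-color tumors (10.1%) and 2 in solid carcinomas alone (5.06%), and by Wnt cluster 9 in the tumor color alone (15.1%), 7 with processed signals (10.2%) and 2 with median centering (7.26%). By histological type there were 6 without p75-150 (5.55%) and 2 without p75-94 (3.62%). The directions over all genes at that threshold were 6.52% higher and 5.37% lower by Wnt cluster, 8.02% and 6.01% by transgene, and 3.65% and 1.87% by histological type. Without regard to p, 23 of 38 genes were higher in high-Wnt than low-Wnt tumors (54.6% of all genes), 14 were higher in p110 than p75 tumors (49.3%) and 25 in adenosquamous than solid carcinomas (48%). The median difference of the 38 genes was 0.09 by Wnt cluster (high minus low), -0.03 by transgene and 0.17 by histological type, against 0.01, 0.00 and -0.01 over all genes, and within p75 tumors the value by histological type was 0.03. It was 0.04 without p75-47. With median centering the value was -0.23 by Wnt cluster and -0.69 by transgene. Between high-Wnt and medium-Wnt tumors, 3 genes were higher and 1 lower at an unadjusted p under 0.05 (4.02% of all genes, 2.22% higher and 1.8% lower), and 23 of 38 were higher without regard to p (46.1%). Rad50, Apex1 and Ercc1 were the higher ones and Nbn the lower one. Between medium-Wnt and low-Wnt tumors, Fancd2 alone of the 38 was higher and none lower (10.9% of all genes, 6.6% higher and 4.31% lower), and 21 were higher without regard to p (55.3%). No repair gene passed the adjusted threshold in these, where 0 and 0.0278% of all genes did.

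**Figure D2:**
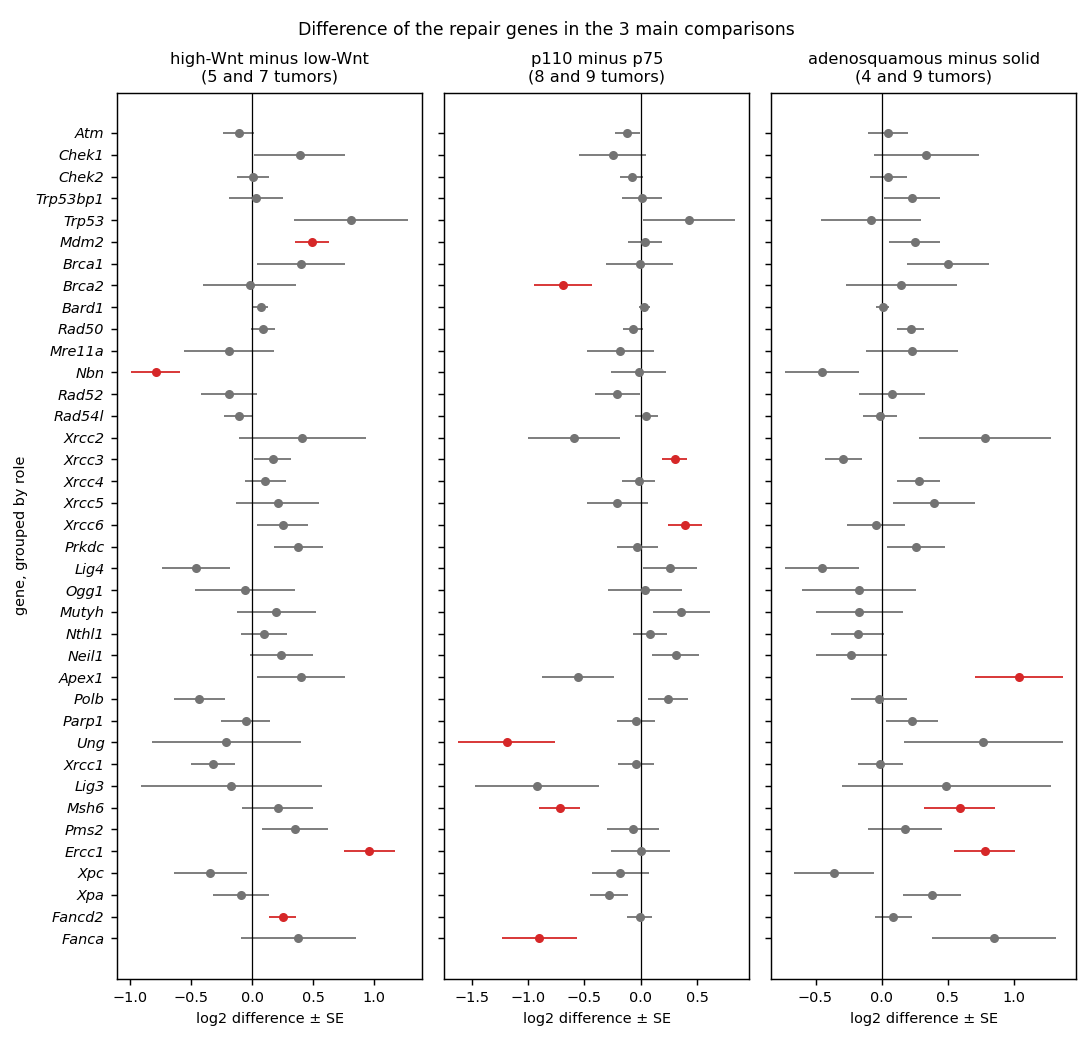
Difference of the 38 repair genes (rows, by role) in the 3 main comparisons, in log2 units with the standard error of the limma fit; red points have an unadjusted p under 0.05. Ercc1 (0.96) has the highest and Nbn (-0.79) the lowest difference in the left panel, where Trp53 (0.81) has a wide error, and Ung (-1.19), Fanca (-0.90), Msh6 (-0.72) and Brca2 (-0.69) are lower in the middle one.

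Between the Wnt clusters, Ercc1 and Nbn were the 2 genes whose values did not overlap between high-Wnt and low-Wnt tumors, beside 1.65% of all genes. Ercc1 was -0.61 in p75-47, -0.65 in p75-80, 0.12 in p75-94, -0.84 in p110-225 and -0.03 in p110-374, the 5 high-Wnt tumors. In the 7 low-Wnt tumors it ran from -1.81 to -0.95 with a median of -1.32, so every high-Wnt tumor of either transgene lay above every low-Wnt tumor. High-Wnt tumors averaged -0.40 ± 0.42 (SD, n = 5) and low-Wnt tumors -1.36 ± 0.27 (SD, n = 7). They differed by 0.96 ± 0.21 (SE), or 1.94-fold, with an adjusted p of 0.0685 in limma. The exact permutation test, two-sided, gave p = 0.00126, the smallest these group sizes allow. The gene was measured in all 12 of these tumors and has 1 probe. Its difference was 1.02 ± 0.33 within p75 tumors and 0.90 ± 0.26 within p110 tumors (SE). The high-Wnt p110 tumors, p110-225 and p110-374, both have weak tumor color, so within p110 the cluster and weak color cannot be told apart. Without the 3 weak-color tumors the difference was 0.98 ± 0.24 (SE, adjusted p = 0.201 by limma). Medium-Wnt tumors, from -1.59 to -0.71, overlapped with both of the other clusters, with a mean 0.78 ± 0.22 (SE) below the high-Wnt mean (adjusted p = 0.984 by limma, exact permutation p = 0.0317). With median centering in place of loess, however, the high-Wnt minus low-Wnt difference of Ercc1 was 0.10.

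Nbn, the subunit that brings ATM to breaks, ran the other way. It was -0.87 in p75-47, -0.79 in p75-80, -1.08 in p75-94, -1.02 in p110-225 and -1.05 in p110-374. In low-Wnt tumors it ran from -0.76 in p110-416 to 0.29 in p110-314 with a median of -0.03, and in medium-Wnt tumors from -0.61 in p75-90 to 0.55 in p110-121. The high-Wnt tumors therefore lay together below all other 12 tumors. Nbn averaged -0.96 ± 0.12 (SD, n = 5) there, while the low-Wnt mean was -0.17 ± 0.38 (SD, n = 7). The high-Wnt minus low-Wnt difference was -0.79 ± 0.20 (SE), with an adjusted p of 0.108 in limma and p = 0.00253 by exact permutation. Against medium-Wnt tumors it was -0.85 ± 0.21 (SE), with an adjusted p of 0.793 in limma and p = 0.00794 by exact permutation, and 0.643% of all genes had no overlap there. It was -0.94 ± 0.16 within p75 and -0.72 ± 0.37 within p110 tumors (SE), where both high-Wnt tumors have weak color, and -0.75 ± 0.25 (SE, adjusted p = 0.397 by limma) without the 3 weak-color tumors. Nbn has 3 probes, of which the brightest was measured in 17 tumors and the others in 2 each. The dimmer probes differed by -0.26 and 0.05, and the mean of all probes by -0.33. With median centering the brightest differed by -1.71. The other subunit genes differed by -0.19 ± 0.37 (Mre11a) and 0.09 ± 0.10 (Rad50, unmeasured in these tumors). A dimmer Mre11a probe, measured in 10 tumors, had the opposite sign (0.38).

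Mdm2 was higher in high-Wnt tumors by 0.49 ± 0.14 (SE, adjusted p = 0.154 by limma, exact permutation p = 0.0139). Its values were -0.36 in p75-47, -0.73 in p75-80, -0.37 in p75-94, -0.67 in p110-225 and -0.88 in p110-374, and ran from -1.38 to -0.69 with a median of -1.14 in low-Wnt tumors. The groups overlapped, and Mdm2 was measured in 2 of the 5 high-Wnt and 4 of the 7 low-Wnt tumors. In the tumor color without the reference the difference was -0.39. Within p75 tumors it was 0.76, and 0.20 within p110 tumors, where both high-Wnt tumors have weak color. The dimmer Mdm2 probe, measured in no tumor, differed by 0.05. Polb differed by -0.43 ± 0.21 (SE, adjusted p = 0.437 by limma), with -0.03, -0.40, 0.07, -0.53 and -0.39 in the same 5 high-Wnt tumors against -0.28 to 0.83 (median 0.16) in low-Wnt tumors. Prkdc differed by 0.38 ± 0.20 (SE, adjusted p = 0.478 by limma), with 0.32, -0.82, -0.35, -0.20 and -0.51 against -1.41 to -0.33 (median -0.56). The groups overlapped for both. Without p75-47 the difference of Prkdc was 0.22, and it was -0.09 with median centering and -0.06 with processed signals. That of Polb was -0.19 as the mean of its probes, of which the dimmer (0.04) was measured in no tumor, and -1.23 with processed signals. Fancd2 differed by 0.25 ± 0.11 (SE, adjusted p = 0.393 by limma), with -0.24, -0.85, -0.57, -0.42 and -0.63 against -0.99 to -0.54 (median -0.81). No array of these 12 tumors had the brighter of its 2 probes well above background, and the other, measured in 1 of the 17 tumors, differed by 0.14. The brighter probe differed by 0.06 in the tumor color alone and by 0.80 with processed signals.

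**Figure D3:**
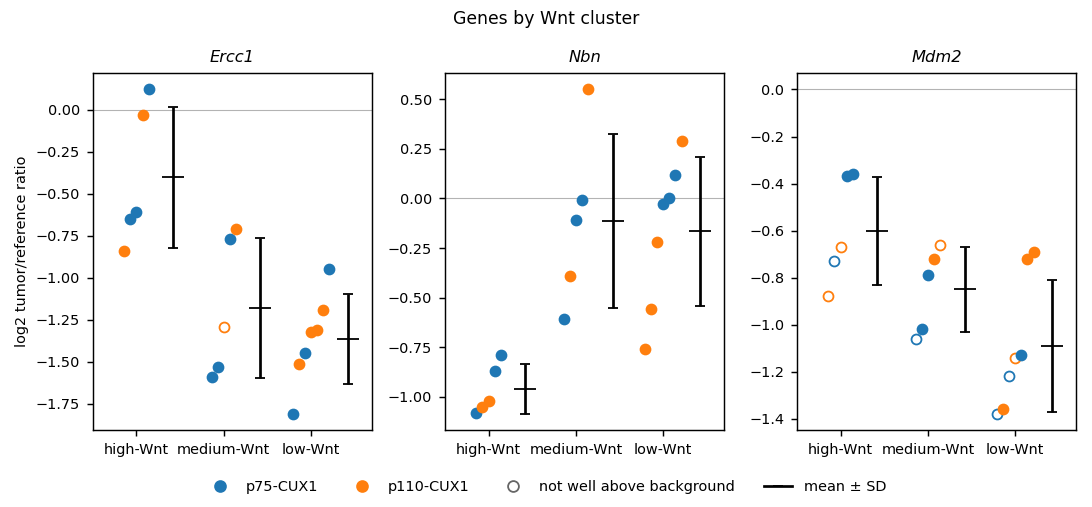
Log2 tumor/reference ratio of Ercc1, Nbn and Mdm2 in each tumor by Wnt cluster (points, colored by transgene; open where the gene was not measured), with the mean and SD of each cluster beside the points. High-Wnt tumors lie above all low-Wnt tumors for Ercc1 (-0.84 to 0.12 against -1.81 to -0.95) and below them for Nbn (-1.08 to -0.79 against -0.76 to 0.29), whereas Mdm2 overlaps.

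Marker lists of other cell types were compared in the same way, and no gene of them passed the adjusted threshold. Of 10 markers of squamous epithelium, 8 were higher in high-Wnt tumors at an unadjusted p under 0.05 (6.52% of all genes, median difference 0.79), with list means from -0.15 to 2.14 in high-Wnt and -0.47 to -0.27 in low-Wnt tumors. Only 3 of the 10 were measured in more than 8 tumors. From 2 to 8 were measured in each high-Wnt and from 1 to 3 in each low-Wnt tumor, so many of these values rest on signals near background. Of 9 fibroblast markers, 8 were higher, 1 of them at an unadjusted p under 0.05 (median 0.76), and the 17 proliferation genes had a median difference of 0.21 with none past that threshold. The 8 endothelial markers had a median difference of -0.56 (2 lower at an unadjusted p under 0.05, beside 5.37% of all genes), the 7 adipocyte markers -0.63 and the 11 immune markers 0.04. For the 9 epithelial markers it was -0.04 (1 higher and 2 lower at that threshold). Between high-Wnt and medium-Wnt tumors, 9 of 9 fibroblast markers were higher (2 at an unadjusted p under 0.05, median 0.90), 17 of 17 proliferation genes (none at that threshold, median 0.43) and 9 of 10 squamous markers (3 at it, median 0.52). So were 8 of 9 epithelial (1 at it, median 0.39), 6 of 7 adipocyte (median 0.83) and 4 of 8 endothelial markers (median 0.14), whereas 9 of 11 immune markers were lower (median -0.22). Of all genes 46.1% were higher, 2.22% of them at that threshold. In both clusters 6 to 16 of the 17 proliferation genes were measured per tumor. Between medium-Wnt and low-Wnt tumors, the epithelial markers had a median difference of -0.70 (2 lower at an unadjusted p under 0.05), the endothelial markers -0.74 (4 lower) and the adipocyte markers -1.61 (1 lower), beside 4.31% of all genes lower. The part of these lists in the differences of Ercc1, Nbn and the p53 target genes was not tested.

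Trp53 was looked at after its values were seen. It was 0.48 in p110-225, 1.26 in p110-374 and 1.39 in p110-98, and between -1.52 and -0.15 in the other 14 tumors. These 3 are the tumors with the weakest tumor color. The high-Wnt minus low-Wnt difference was -0.21 within p75 and 2.13 within p110 tumors, and the difference between these effects was 2.34 (limma interaction, unadjusted p = 0.000645, adjusted p = 0.0724), the smallest p of the 38 genes. Of all genes, 0.372% passed the adjusted threshold for this term. Without the 3 tumors the high-Wnt minus low-Wnt difference was 0.08 ± 0.27 (SE), against 0.81 ± 0.47 (SE) with them. The dimmer of the 2 Trp53 probes, measured in 3 tumors, differed by 0.15.

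Of 24 known p53 target genes, 7 were higher and 0 lower in high-Wnt than low-Wnt tumors at an unadjusted p under 0.05, beside 6.52% of all genes higher and 5.37% lower, and 0 passed the adjusted threshold. Their median difference was 0.33, and 19 of 24 were higher (54.6% of all genes). Between medium-Wnt and low-Wnt tumors the median was 0.41, with 19 of 24 higher (55.3% of all genes). Of these targets 4 were higher and 0 lower at an unadjusted p under 0.05, beside 6.6% and 4.31% of all genes. Between high-Wnt and medium-Wnt tumors the median was 0.19, with 15 of 24 higher (46.1% of all genes), and 2 were higher and 1 lower at that threshold (2.22% and 1.8%). The 4 with the smallest p, named after their values were seen, were Phlda3, an inhibitor of AKT signaling, Plk3, a stress-responsive kinase, Apaf1, the caspase activator of the apoptosome, and Cdkn1a, the cell cycle inhibitor p21. Phlda3 averaged 1.97 in high-Wnt and -0.40 in low-Wnt tumors, a difference of 2.38 ± 0.49 (SE, adjusted p = 0.0618 by limma). For Plk3 the difference was 1.65 ± 0.38 (SE, adjusted p = 0.0914 by limma), for Cdkn1a 1.77 ± 0.53 (SE, adjusted p = 0.177 by limma), and for Apaf1 0.64 on the log2 scale. Overlap of the groups and the tumors measured are not given for these 4 genes. The high-Wnt p110 tumors and a medium-Wnt p110 tumor have weak tumor color. The part of weak color in the differences of the p53 targets between Wnt clusters was not tested. In adenosquamous against solid carcinomas, 7 of the 24 were higher and 0 lower at an unadjusted p under 0.05 (median 0.50; 3.65% of all genes higher), and between p110 and p75 tumors 1 was higher and 6 lower (median -0.17; 8.02% and 6.01% of all genes).

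By transgene, 4 genes were lower and 2 higher in p110 than in p75 tumors at an unadjusted p under 0.05. Msh6 had the smallest p. In the 9 p75 tumors it ran from -1.78 to -0.80 with a median of -1.42, and in the 8 p110 tumors from -2.48 to -1.22 with a median of -2.19. In p110-314, the highest p110 tumor, the value of -1.22 lay within the p75 range, and the other 7 p110 tumors lay at or below -1.78, the lowest p75 value. On average Msh6 was -2.05 ± 0.42 (SD, n = 8) with p110 and -1.33 ± 0.34 (SD, n = 9) with p75. The difference was -0.72 ± 0.18 (SE), or 0.605-fold, with an adjusted p of 0.0765 in limma and p = 0.00214 by exact permutation. Msh6 passed the threshold without p110-314 (-0.84, adjusted p = 0.0127 by limma) and with the Wnt cluster as a block (-0.75, adjusted p = 0.0234 by limma), settings at which 4.07% and 4.11% of all genes passed against 0.459% as reported, and it did not among solid carcinomas alone (-0.68, adjusted p = 0.898 by limma). It was measured in all 17 tumors and has 1 probe.

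Ung ran from -1.65 to 0.93 in p75 tumors (median -0.24) and from -2.94 to 0.29 in p110 tumors (median -1.88), a difference of -1.19 ± 0.43 (SE, adjusted p = 0.21 by limma, exact permutation p = 0.0205). Fanca ran from -1.24 to 0.38 (median -0.49) and from -2.75 to -0.08 (median -1.56), a difference of -0.90 ± 0.33 (SE, adjusted p = 0.21 by limma, exact permutation p = 0.0172). Brca2 ran from -1.57 to 0.49 (median -0.87) and from -2.34 to -0.98 (median -1.48), a difference of -0.69 ± 0.26 (SE, adjusted p = 0.224 by limma, exact permutation p = 0.0145). The groups overlapped for all 3, and p110-314 was the highest p110 tumor for Ung and Brca2 and close to the highest for Fanca. That tumor also had the highest proliferation markers: the 17 genes averaged -0.04 in p110-314, and from -3.06 to -0.93 in the other p110 and from -2.12 to -0.27 in the p75 tumors, with a median difference between transgenes of -0.81 and 15 of 17 genes lower in p110. From 6 to 17 of them were measured in each p110 and from 12 to 16 in each p75 tumor. Of the immune markers, 11 of 11 were higher in p110 tumors (3 at an unadjusted p under 0.05, median 0.20), of the epithelial markers 7 of 9 were lower (2 lower and 1 higher at that threshold, median -0.62), and 2 of 8 endothelial markers were higher at it (median 0.26), beside 8.02% of all genes higher and 6.01% lower. The part of these lists in the differences of Msh6, Ung, Fanca and Brca2 was not tested. In the tumor color alone the differences of these 4 genes were -0.46, -0.56, -0.04 and -0.24, and with median centering -2.01, -2.44, -2.03 and -1.95. The mean of all probes gave -0.45 for Fanca and -0.40 for Brca2. Without p110-121, the tumor with few epithelial markers, they were -0.69, -1.08, -0.84 and -0.58.

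The genes that were higher in p110 tumors were mostly unmeasured. Xrcc6 differed by 0.39 ± 0.15 (SE, adjusted p = 0.24 by limma), with p75 tumors from -1.35 to -0.19 (median -0.95, 1 of 9 measured) and p110 tumors from -0.99 to -0.16 (median -0.46, 2 of 8 measured). Xrcc3 differed by 0.30 ± 0.11 (SE, adjusted p = 0.233 by limma), from -0.71 to -0.10 (median -0.46, 3 of 9 measured) and from -0.45 to 0.27 (median -0.06, 2 of 8 measured). Both values depended on the processing, with 0.06 for Xrcc6 and 0.04 for Xrcc3 with median centering and 0.91 and 0.56 with processed signals. Ercc1 and Nbn differed by 0.00 ± 0.26 and -0.02 ± 0.24 (SE) between the transgenes.

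**Figure D4:**
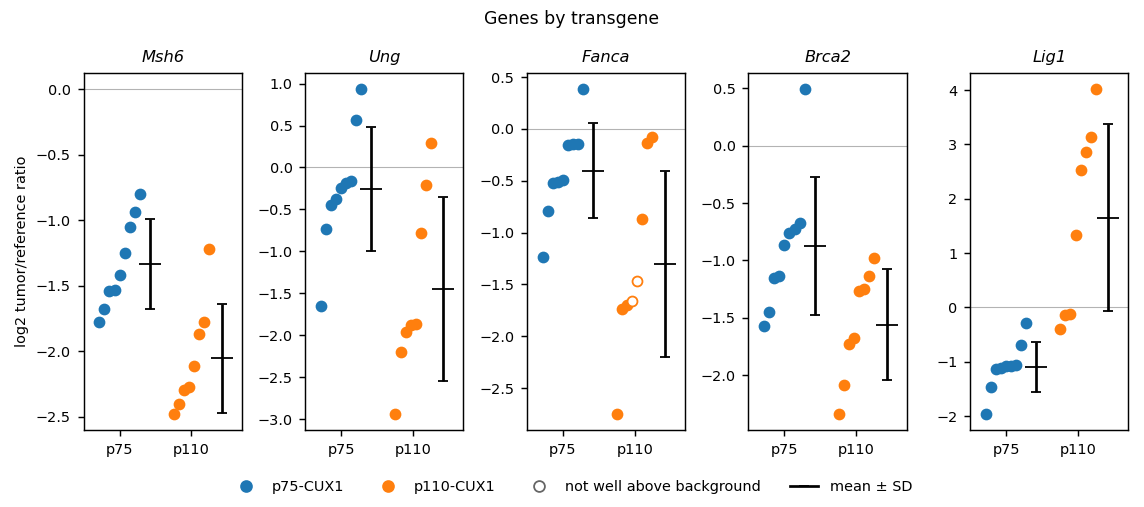
Log2 tumor/reference ratio of Msh6, Ung, Fanca, Brca2 and Lig1 in each tumor by transgene (points; open where the gene was not measured), with the mean and SD beside the points. Msh6 averages -1.33 in p75 and -2.05 in p110 tumors, and Lig1 -1.10 and 1.65.

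Of 108 further genes of the same pathways on the array, 1 passed the adjusted threshold in a main comparison: Lig1, the ligase that joins Okazaki fragments and also closes long-patch base excision repair. It ran from -1.96 to -0.29 in p75 tumors. In p110 tumors it was 4.01 in p110-98, 3.13 in p110-374, 2.86 in p110-225, 2.53 in p110-121, 1.33 in p110-143, -0.12 in p110-360, -0.13 in p110-314 and -0.39 in p110-416. Thus 5 p110 tumors lay above 1 and the other 3 beside the highest p75 tumor. The p110 tumors averaged 1.65 ± 1.72 (SD, n = 8) and the p75 tumors -1.10 ± 0.46 (SD, n = 9). The difference was 2.75 ± 0.57 (SE), with an adjusted p of 0.045 in limma. Exact permutation gave p = 8.23e-05, not corrected for the choice of Lig1 from the 108 genes on these same values. Transgene and scan year cannot be told apart here either. With median centering the difference was 1.47, and over the 16 other settings its adjusted p ran from 0.00229 to 0.898 by limma. The 3 highest values belong to the 3 tumors with weak color, without which the difference was 1.74 ± 0.44 (SE, adjusted p = 0.145 by limma). The gene has 1 probe, which is bright (mean log2 signal 14.36). Its adjusted p ran from 0.0134 to 0.0946 when 1 tumor was left out, and the call was kept only without p110-314, p110-360 or p110-416. The proliferation markers averaged -1.64, -1.71 and -2 in p110-98, p110-374 and p110-225. Only 6, 6 and 9 of the 17 were measured there, so these means rest largely on signals near background. At an unadjusted p under 0.05, 4 of the 108 genes were higher and 14 lower in p110 tumors (8.02% and 6.01% of all genes), 13 higher and 6 lower in high-Wnt against low-Wnt tumors (6.52% and 5.37%), and 10 higher and 1 lower in adenosquamous against solid carcinomas (3.65% and 1.87%).

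The lists behind these counts, to be read against the same shares of all genes, are 18 checkpoint genes, 20 of double-strand break repair, 8 Fanconi anemia genes, 15 of base excision repair, 23 of mismatch and nucleotide excision repair, and the 24 p53 targets. In p110 tumors, the Fanconi anemia list had 6 of 8 genes lower (1 at an unadjusted p under 0.05; median -0.26) and the mismatch and nucleotide excision list 12 of 23 lower (4 lower and 1 higher at an unadjusted p under 0.05; median -0.07). In high-Wnt tumors, the double-strand break list had 13 of 20 higher (3 higher and 1 lower at an unadjusted p under 0.05; median 0.13), the checkpoint list 8 of 18 (2 higher and 1 lower; median -0.01) and the base excision list 11 of 15 (1 higher; median 0.15). The mismatch and nucleotide excision list had 12 of 23 higher (0 higher and 3 lower at that threshold, median 0.00) and the Fanconi anemia list 5 of 8 (0 higher and 1 lower, median 0.12).

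By histological type, Ercc1, Apex1 and Msh6 were higher in adenosquamous carcinomas at an unadjusted p under 0.05, and none passed the adjusted threshold. Ercc1 was -0.61 in p75-47, -0.65 in p75-80, 0.12 in p75-94 and -0.95 in p75-101, the adenosquamous carcinomas, and ran from -1.81 to -0.71 with a median of -1.32 in the 9 solid carcinomas. The difference was 0.78 ± 0.23 (SE, with an adjusted p of 0.871 in limma and p = 0.00699 by exact permutation), 1.08 ± 0.26 (SE) within p75 tumors and 1.5 in the tumor color alone. The adenosquamous carcinomas include 3 of the 5 high-Wnt tumors, so this value and that of the Wnt clusters share tumors. Apex1 was 1.79, 0.58, 1.32 and 1 in the same 4 tumors and ran from -1.01 to 1.07 with a median of 0.26 in solid carcinomas. Its difference of 1.04 ± 0.33 (SE), or 2.05-fold (adjusted p = 0.871 by limma, exact permutation p = 0.0154), was 0.83 ± 0.30 (SE) within p75 tumors. The groups overlapped for both genes, as for all 38, while 0.41% of all genes had no overlap.

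Msh6 was -1.25, -1.05, -0.94 and -1.54 in these 4 tumors and ran from -2.40 to -0.80 with a median of -1.78 in solid carcinomas (difference 0.59 ± 0.27, SE, and 0.14 ± 0.25 within p75 tumors). For Fanca the values were -0.15, 0.38, -0.15 and -0.79 against -2.75 to -0.08 with a median of -0.52 (difference 0.85 ± 0.47, SE, and 0.22 ± 0.27 within p75 tumors). Xrcc3 (-0.46, -0.47, -0.38 and -0.71 against -0.62 to 0.23 with a median of -0.21, difference -0.29 ± 0.14, SE) was measured in 1 of the 4. Rad50 (0.06, -0.10, 0.54 and 0.25 against -0.29 to 0.13 with a median of -0.02, difference 0.22 ± 0.10, SE) was measured in none of them, and its difference was 0.10 without p75-94. These 4 had an adjusted p of 0.871 each (limma). With processed signals the difference was -0.91 for Xrcc3 and 0.81 for Rad50, and in the tumor color alone it was 0.11 for Fanca. Since all adenosquamous carcinomas carry p75, and 6 of the 9 solid carcinomas carry p110, type and transgene overlap. Of 17 proliferation genes, 16 were higher in adenosquamous carcinomas (median 0.83; list means -0.99 to -0.42 against -3.06 to -0.04). Of 10 squamous markers, 8 were higher at an unadjusted p under 0.05 (3.65% of all genes, median 0.86). From 2 to 8 of the 10 were measured in each adenosquamous and from 1 to 8 in each solid carcinoma. Of 9 fibroblast markers 7 were higher, none at that threshold (median 0.57). The part of these lists in the values of the repair genes and of the p53 targets was not tested.

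**Figure D5:**
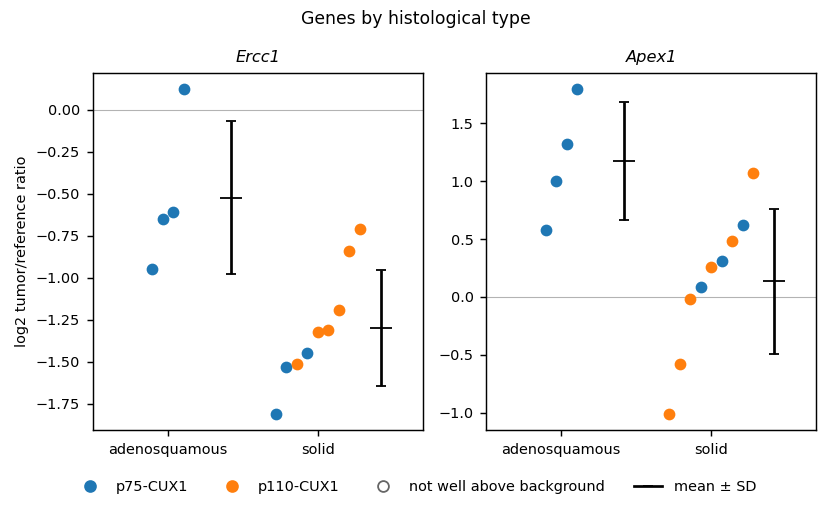
Log2 tumor/reference ratio of Ercc1 and Apex1 in the 4 adenosquamous and 9 solid carcinomas (points, colored by transgene), with the mean and SD beside the points. Both genes are higher on average in adenosquamous carcinomas (-0.52 against -1.30, and 1.17 against 0.14), and the groups overlap.

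The promoters of 4 of the 5 genes with the smallest p over the main comparisons are shown (Nbn has no entry), since CUX1 is a DNA-binding protein. Cut proteins are known to bind CCAAT boxes and also the letters ATCGAT, with the related string ATCAAT. Each stretch runs from 250 bases before to 50 after the start listed by RefSeq (build GRCm38.p6), 5′ to 3′ along the gene, with matches to any searched letters in capitals. The letters searched on both strands were these, the E2F-type strings TTTGGCGC, TTTCCCGC and TTTGGCGG, and TTTGAA of the cell cycle homology region, none of which contains another.
Ercc1 (chr7:19344821-19345120, plus strand): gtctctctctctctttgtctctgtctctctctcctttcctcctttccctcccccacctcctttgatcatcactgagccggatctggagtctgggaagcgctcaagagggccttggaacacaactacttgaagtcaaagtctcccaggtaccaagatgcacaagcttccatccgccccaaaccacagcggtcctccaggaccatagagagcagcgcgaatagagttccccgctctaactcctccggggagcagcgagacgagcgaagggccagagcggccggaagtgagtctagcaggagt
Msh6 (chr17:87974800-87975099, plus strand): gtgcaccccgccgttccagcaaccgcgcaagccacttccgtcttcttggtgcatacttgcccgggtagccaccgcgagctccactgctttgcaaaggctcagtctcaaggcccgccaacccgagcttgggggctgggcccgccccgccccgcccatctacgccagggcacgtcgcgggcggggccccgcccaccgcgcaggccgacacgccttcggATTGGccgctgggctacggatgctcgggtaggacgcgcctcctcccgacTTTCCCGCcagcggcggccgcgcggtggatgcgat
Mdm2 (chr10:117710709-117711008, minus strand): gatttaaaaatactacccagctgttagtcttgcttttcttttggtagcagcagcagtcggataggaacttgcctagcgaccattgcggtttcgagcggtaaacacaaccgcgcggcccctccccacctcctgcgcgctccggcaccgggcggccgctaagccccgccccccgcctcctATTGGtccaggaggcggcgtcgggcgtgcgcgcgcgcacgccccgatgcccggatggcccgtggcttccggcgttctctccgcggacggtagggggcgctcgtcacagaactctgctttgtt
Apex1 (chr14:50924699-50924998, plus strand): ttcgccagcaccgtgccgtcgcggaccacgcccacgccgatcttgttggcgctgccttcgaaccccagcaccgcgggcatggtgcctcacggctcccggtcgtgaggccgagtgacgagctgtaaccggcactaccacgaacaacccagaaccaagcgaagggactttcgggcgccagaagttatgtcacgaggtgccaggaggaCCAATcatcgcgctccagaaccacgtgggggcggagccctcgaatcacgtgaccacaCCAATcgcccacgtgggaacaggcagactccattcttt
In Ercc1 none of the letters is present, nor in the promoter of Ung, which ranks 6 by p and is not shown. Msh6 holds CCAAT on the opposite strand, 34 bases before the start, and TTTCCCGC 16 bases after it, counting its first base as 1. Mdm2 holds CCAAT on the opposite strand, 72 bases before the start. Apex1 holds CCAAT at 45 bases before and 13 bases into the gene.

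The table holds a promoter for 34 of the 41 listed genes. CCAAT was found in 21 of these 34 (61.8%), against 37.9% of 27025 promoters of the same length, TTTCCCGC in 5 (14.7% against 1.11%), TTTGGCGG in 2 (5.88% against 0.551%) and TTTGGCGC in 0 (against 0.537%). ATCGAT was found in 0 (against 0.881%), ATCAAT in 1 (2.94% against 7.76%) and TTTGAA in 1 (2.94% against 18.1%). The promoters of the repair genes also had a higher GC content, with a median of 59.8% against 52.7%, and were not matched for it. A match is a description of letters and says nothing about binding.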

How the data were processed

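RNA of laser-captured epithelial cells from 17 tumors was hybridized against amplified universal reference RNA on 2-color Agilent whole mouse genome arrays, 1 dye-swapped pair per tumor and 2 pairs for p110-143 and p110-360, 38 arrays in all. The scanner files hold intensity values, deposited by the authors as Feature Extraction output, and the value table holds the authors' log2 ratios of tumor over reference, which were used here; normexp correction (offset 50), loess and averaging of the turned arrays of a tumor gave the same values within 4.98e-08. Per tumor, 1 averaged value entered each test, so arrays of a tumor were not counted as replicates. Control spots were left out of the genes tested. Spots marked as outliers (0.545%) stayed in the deposited values, and an alternative was computed without them.

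Groups came from the sample labels; the Wnt clusters came from the published clustering of the same tumors. The brightest of a gene's probes stood for it. Differences were fitted with limma 3.58.1 (R 4.3.3; lmFit and eBayes) over 28786 genes with Benjamini-Hochberg adjustment at 0.05, with all 17 tumors in each fit (12 for the interaction of Wnt cluster and transgene), and members were also compared by exact two-sided permutation. Values per tumor (lowest, median and highest in groups over 5 tumors) were given for members past the adjusted threshold, members with an unadjusted p under 0.05 and no overlap, and the 6 members of smallest p in each main comparison. Other pathway genes were named where they passed the adjusted threshold, and any further gene is said to have been chosen after its values were seen. The members and gene lists were chosen with earlier results of these data known. Nothing in the labels says more than 1 tumor came from a mouse. Alternatives were other background corrections, centering, scaling, probe choice, single colors, blocks and subsets of tumors. The code was tested on simulated data.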

Additional observations from a re-analysis of the deposited data

Results flagged for a closer look

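For 14 repair genes in 7 groups of 4 to 9 tumors, 98 sets of values in all, 1 tumor's log2 ratio lay far from the others in 8. Chance gives about 1 in 20, but the groups share tumors, so these sets are not independent. For Prkdc, p75-47 (0.32) lay above the other p75 tumors (nearest -0.35), and p110-143 (-1.41) below the other p110 tumors (nearest -0.6). Brca2 was 0.49 in p75-534, above the other p75 tumors (nearest -0.67). Xrcc6 was -0.19 in p75-47, above the other p75 tumors (nearest -0.88) and the other adenosquamous carcinomas (nearest -0.95). Apex1 was -1.01 in p110-143, below the other low-Wnt tumors (nearest 0.26). Rad50 was 0.54 in p75-94 among high-Wnt tumors (nearest 0.07) and -0.29 in p75-129 among solid carcinomas (nearest -0.08). Of these, Prkdc in p110-143 and Rad50 in p75-94 were not well above background on every array of the tumor.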

How the results depend on the processing

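Of 612 recomputed values of 20 differences in 16 named genes, 583 kept their direction and side of the threshold, 18 lost and 5 gained a call, and 6 changed sign: in the Wnt comparison, Mdm2 was -0.04 with processed signals and -0.39 in the tumor color alone, Prkdc -0.06 with processed signals and -0.09 with median centering, and Trp53 -0.09 with median centering and -0.21 within p75 tumors. The member median there was -0.23 with median centering and -0.19 in the tumor color alone. Between p110 and p75 tumors, 3 members passed with median centering (Brca2, Msh6 and Fanca; 4.19% of all genes passed there), 1 in the tumor color alone (Xrcc1; 5.32%), 1 with the Wnt cluster as a block (Msh6; 4.11%), and the median was -0.47 with processed signals and -0.69 with median centering. Between adenosquamous and solid carcinomas the median was 0.42 with processed signals and 0.03 within p75 tumors. Leaving out 1 tumor at a time gave 0 members in the Wnt and histology comparisons and 0 to 1 by transgene (1 without p110-314), with member medians of 0.07 to 0.15, -0.08 to 0.00 and 0.04 to 0.20. Over all genes the calls moved more: 53 between high-Wnt and low-Wnt tumors became 0 to 346, 132 by transgene became 0 to 1521, and 0 by histological type became at most 1. Leaving out 1 tumor gave 8 (without p110-374) to 90 (without p75-534), 35 (without p75-47) to 1173 (without p110-314) and 0 to 27 (without p75-101). Lig1 by transgene kept its call in 12 of 16 other settings and, among the settings that left out 1 tumor, in 3 of 17 (without p110-314, p110-360 or p110-416). The cause of these changes was not tested. No paired analysis was possible because the replicate numbers are mouse numbers and none is shared between the transgenes. Signal over background limits the genes measured in few tumors.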
